A study of Caenorhabditis elegans with 2 samples.

Results

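The weak sites described here are 1872 regions where the tagged MCD-1 protein of Caenorhabditis elegans was recovered just below the authors' threshold for reproducible binding. They were taken from a list of 55700 ranked peaks on the nuclear chromosomes by their global irreproducible discovery rate (IDR), an estimate of how many peaks of that rank or better would not be found again. Peaks with an IDR above 0.01 and up to 0.05 numbered 1903, and 31 of them were left out because they overlapped a peak of the authors' conservative list by 1 bp or more. The 3903 conservative peaks, which the authors limited to an IDR of 0.01, are the set against which the weak sites are read. Both sets come from chromatin immunoprecipitation and sequencing (ChIP-seq) with an antibody against GFP in whole young adults, 65 hours old, synchronised as starved L1 larvae. The strain, RW12215, carries the allele st12215, a CRISPR insertion of TY1, EGFP and 3xFLAG at mcd-1 on chromosome II, so the protein is tagged at its own gene. The 2 biological replicates share this strain, age and antibody and form 1 group, so no condition is compared, and a whole animal does not show which cells a site comes from. The files hold no read counts, so the depth is unknown, and the control experiment that the labels mention was not used here.

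MCD-1 has zinc fingers and takes its name from its role in modifying cell death, and genetic work placed it in parallel to LIN-35, the worm homologue of the retinoblastoma protein, which acts with the DRM complex at promoters. ChIP-seq recovers the DNA that is crosslinked to a protein, and in whole animals the strength of a peak averages over all cells. The IDR compares the ranks of peaks in replicates and drops peaks whose ranks differ, so a region can miss the threshold through low signal in both replicates or through a high signal in a single replicate.

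The sequence at the summit, the highest point of a peak, is shown for some of the strongest weak sites of each kind of position, all on chromosomes II to V, beside 2 strong conservative promoter peaks, so that their short words can be compared. The sequences are those of RefSeq's WBcel235 assembly (ce11 build), plus strand, with 50 bases on either side of the summit, written 5′ to 3′. Capitals mark GAGCG, CGCG or GAGAGA on either strand, and GAGCG and CGCG can overlap in a run. The promoter-proximal weak sites lie at chrIV:2275698-2275798 (M70.5), chrIV:13369334-13369434 (agt-1), chrIV:126256-126356 (between grld-1 and cox-6C) and chrII:4698404-4698504 (between rpn-5 and scc-1). The other weak sites lie in an exon of the collagen gene col-93 at chrIII:10984934-10985034, in an intron of K09C6.8 at chrV:842805-842905, downstream of puf-6 at chrII:13039283-13039383, and between genes at chrIII:6628024-6628124. The conservative peaks are those of eelo-2 at chrIV:17249857-17249957 and of rpl-7A with set-21 at chrIV:4390615-4390715.
M70.5 promoter: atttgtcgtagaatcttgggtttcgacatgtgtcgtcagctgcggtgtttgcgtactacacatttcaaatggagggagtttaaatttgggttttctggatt
agt-1 promoter: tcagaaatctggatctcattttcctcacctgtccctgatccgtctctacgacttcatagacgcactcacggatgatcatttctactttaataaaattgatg
grld-1 and cox-6C promoter: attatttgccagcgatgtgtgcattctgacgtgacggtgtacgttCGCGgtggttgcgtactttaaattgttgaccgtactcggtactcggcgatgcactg
rpn-5 and scc-1 promoter: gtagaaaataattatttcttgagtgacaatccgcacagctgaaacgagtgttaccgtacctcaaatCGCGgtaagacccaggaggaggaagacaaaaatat
col-93 exon: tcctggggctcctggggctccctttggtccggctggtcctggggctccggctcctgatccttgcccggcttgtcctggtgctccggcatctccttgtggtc
K09C6.8 intron: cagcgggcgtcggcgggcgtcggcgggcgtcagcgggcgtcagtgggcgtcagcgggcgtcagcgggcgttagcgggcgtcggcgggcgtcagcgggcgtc
downstream of puf-6: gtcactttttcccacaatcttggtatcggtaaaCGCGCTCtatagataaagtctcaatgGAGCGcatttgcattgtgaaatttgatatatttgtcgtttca
intergenic site nearest copd-1: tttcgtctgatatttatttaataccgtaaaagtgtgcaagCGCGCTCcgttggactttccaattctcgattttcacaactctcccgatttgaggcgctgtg
eelo-2 promoter: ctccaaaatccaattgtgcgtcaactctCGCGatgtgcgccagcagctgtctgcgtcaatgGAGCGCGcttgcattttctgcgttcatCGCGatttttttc
rpl-7A and set-21 promoter: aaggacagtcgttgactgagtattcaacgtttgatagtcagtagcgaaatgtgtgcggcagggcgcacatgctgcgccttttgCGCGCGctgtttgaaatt
The weak windows of M70.5, agt-1, col-93 and K09C6.8 held none of the 3 words, those of grld-1 with cox-6C and rpn-5 with scc-1 held CGCG alone, and the windows near puf-6 and copd-1 held GAGCG and CGCG. The conservative window of eelo-2 held GAGCG and CGCG, and that of rpl-7A with set-21 held CGCG. The col-93 window had a GC content of 68.3% and the K09C6.8 window, a short unit repeated in tandem, 81.2%.

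Over all weak sites, GAGCG stood within 50 bp of the summit, a window as printed above, at 310 sites (16.6%, Wilson 95% interval 14.9 to 18.3), against 1242 conservative windows (31.8%, 30.4 to 33.3). The next weaker peaks of the same ranked list, 3946 with an IDR above 0.05 up to 0.2, held it in 13.9% of windows. Windows 300 bp to either side of the weak summits held it in 7.75%, and all tiles of the nuclear genome, of the same length, in 5.63%. The weak share therefore lay between the conservative peaks and the surrounding sequence. CGCG followed the same order, with 26.9% of weak windows, 46.5% of conservative windows, 11.5% of flanking windows and 8.73% of tiles. GAGAGA stood in 281 weak windows, 20.7% of conservative windows and 5.18% of tiles. TTTGAA, a word rich in A and T, ran the other way against the genome, at 14.1% of weak windows, 16.6% of conservative windows and 29.1% of tiles. At least 1 of GAGCG, CGCG and GAGAGA stood in 46.2% of weak windows, 68.5% of conservative windows, 22.4% of flanking windows and 17.5% of tiles. Of the 6-mers that lead in conservative windows over the genome, GAGCGC stood in 6.30% of weak and 18.5% of conservative windows, against 1.31% of tiles. GCGCGC stood in 4.81% of weak and 11.1% of conservative windows, against 0.645% of tiles. Weak windows had a median GC content of 48.5%, against 49.5% in conservative windows and 34.7% in tiles. The share that GC content has in these words was not tested, and a word in a window is a description, not a binding site.

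The weak sites were chosen by their rank, so their signal is a description. The signal value is the authors' own measure of enrichment of a peak. It was 63.2 at the median weak site (quartiles 55.4 and 71.2, range 2.04 to 220) and 148 and 45.8 at the median conservative and next weaker peak. In each replicate's own ranked list, the overlapping peak with the nearest summit was divided by the replicate's median conservative peak, which was 87.3 for replicate 1 and 66.7 for replicate 2. A peak was found in both replicates for 1803 weak sites. Weak sites that overlap could be given the same replicate peak, which then counts more than once. The multiples of these 1803 sites, each a mean of both replicates, lay between 0.339 and 1.68 around a median of 0.436. The SD of a site's replicate multiples (n = 2) had a median of 0.0725. The coefficient of variation had a median of 17.1% over weak sites and 14.9% over conservative peaks.

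The replicates drew a bent pattern. The lower of a site's replicate multiples stayed in a narrow range, with 0.329 and 0.442 as its 5th and 95th percentiles, while the higher one went from 0.364 to 2.89. Over all 1803 sites the lower multiple was at most 0.468. The sites were chosen by the IDR, which compares ranks between replicates, so this pattern describes the choice and not single genes. Replicate 2 gave the higher multiple at 1133 sites and replicate 1 at 670. Among the 98 of the 100 strongest sites that both replicates held, 61 differed by over 2-fold, and replicate 1 was the higher at 63. Over all weak sites held by both replicates only 6.66% differed by over 2-fold, against 4.79% of such conservative peaks. With the lower multiple so limited, picking sites of high signal picks sites with unlike replicates. At the threshold itself, the 3 weak sites nearest to an IDR of 0.01 had signals of 80.5, 24.9 and 70.3. The 3 ranked peaks just past the threshold had IDRs of 0.009993, 0.009982 and 0.009970, and the lowest signal among them was 63.7. At the other end, the 3 weak sites nearest to an IDR of 0.05 had signals of 50.9, 25.2 and 45.8, and the 3 peaks just below had 51.2, 44.5 and 11.8.

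**Figure D1:**
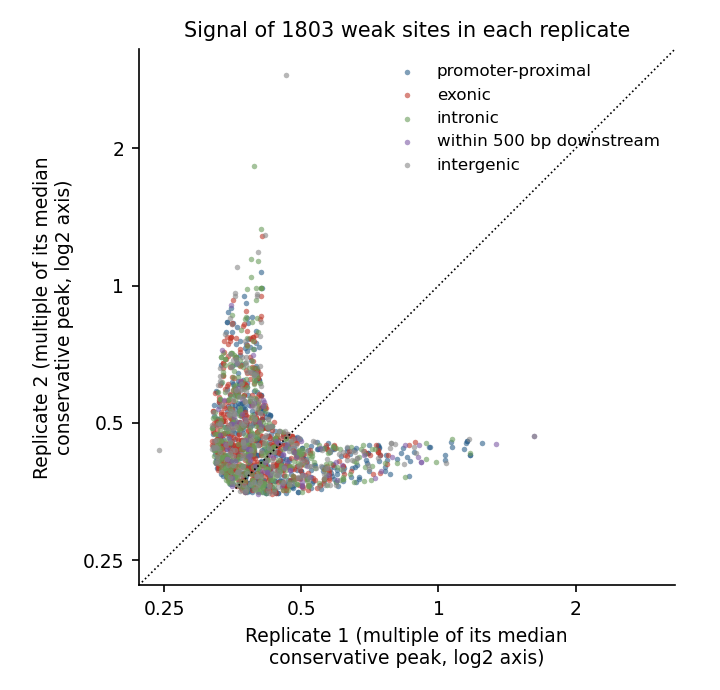
Signal of the 1803 weak sites that both replicates held, with replicate 1 on the horizontal and replicate 2 on the vertical log2 axis, each as a multiple of the replicate's median conservative peak and coloured by position. The points form an L along both axes because the lower of a site's values varied little (0.329 to 0.442 from its 5th to its 95th percentile), and the dotted line marks equal values.

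Most weak sites were absent from every thresholded list of the authors. The pooled list held 476 of them (25.4%), replicate 1's list 122 (6.52%) and replicate 2's list 117 (6.25%), while 4 stood in both replicates' lists and 1341 (71.6%) in none. Of the conservative peaks, 72.1% stood in replicate 1's list and 68.8% in replicate 2's. Weak sites overlapped other peaks often, since 733 (39.2%) overlapped another ranked peak and 308 overlapped another weak site, which left 1717 separate regions over 667 kb. A width of 370 bp, the commonest in the ranked list, was held by 99.5% of weak sites and 53.0% of conservative peaks. A signal under 20 was given to 107 weak sites, with a median of 7.69, and 102 of these overlapped another ranked peak. The replicates' own peaks matched to these 107 sites had medians of 33.7 and 28.7, against 34.3 and 29.3 over all weak sites. The match took any overlapping replicate peak, so a site can carry the peak of a stronger neighbour. An example is a site of signal 7.2 beside that of grld-1 and cox-6C, with the same multiples of 1.16 and 0.457. These medians therefore do not show the replicate signal of the low sites themselves. The median distance from a weak summit to the nearest conservative peak was 3920 bp, and 302 sites (16.1%) lay within 1000 bp of one.

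Position relative to genes separated the weak sites from the conservative peaks. Promoter-proximal summits, those in a window that begins 1000 bp before a protein-coding gene's 5′ end and closes 200 bp past it, made up 513 of the 1872 weak sites (27.4%, Wilson 95% interval 25.4 to 29.5) and 2102 of the 3903 conservative peaks (53.9%, 52.3 to 55.4). The odds ratio was 0.323 (two-sided Fisher's exact test over regions, Benjamini-Hochberg adjusted p = 2.29e-81 over 7 measures). Exonic summits outside these windows went the other way, with 564 weak sites (30.1%, 28.1 to 32.2) and 306 conservative peaks (7.84%, 7.04 to 8.73), an odds ratio of 5.07 (adjusted Fisher p = 7.85e-101). Intronic summits made up 24.2% of weak sites and 19.2% of conservative peaks (odds ratio 1.34, adjusted Fisher p = 3.07e-05). The genome tiles gave 21.5% promoter-proximal, 23.1% exonic and 30.4% intronic, so the weak sites exceeded the genome in the first 2 classes. Summits just past a gene's end, up to 500 bp away, were 5.02% of weak sites and 4.43% of conservative peaks, and intergenic summits 13.2% and 14.6%; neither difference passed the test (adjusted Fisher p = 0.316 and 0.239). The intergenic difference depended on the lists and the window. On replicate 2's own lists 17.4% of weak and 14.2% of thresholded peaks were intergenic, a difference of 3.20 percentage points that passed the test (adjusted Fisher p = 0.0148). With a promoter window of 500 bp upstream to 100 bp downstream the shares were 16.6% and 19.7%, a difference of -3.09 points in the other direction that also passed (adjusted Fisher p = 0.00687). Regions are not replicates and neighbouring regions are not independent, so these p-values are too small. On replicate 1's own lists alone the promoter-proximal shares were 32.8% of weak and 58.6% of thresholded peaks, and on replicate 2's 29.9% and 55.3%. The exonic shares were 23.0% and 5.60% on replicate 1's lists, and 25.6% and 8.28% on replicate 2's. The intronic difference did not pass the test for the weak sites with an IDR up to 0.02 alone (22.5% of weak sites, adjusted Fisher p = 0.0998).

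**Figure D2:**
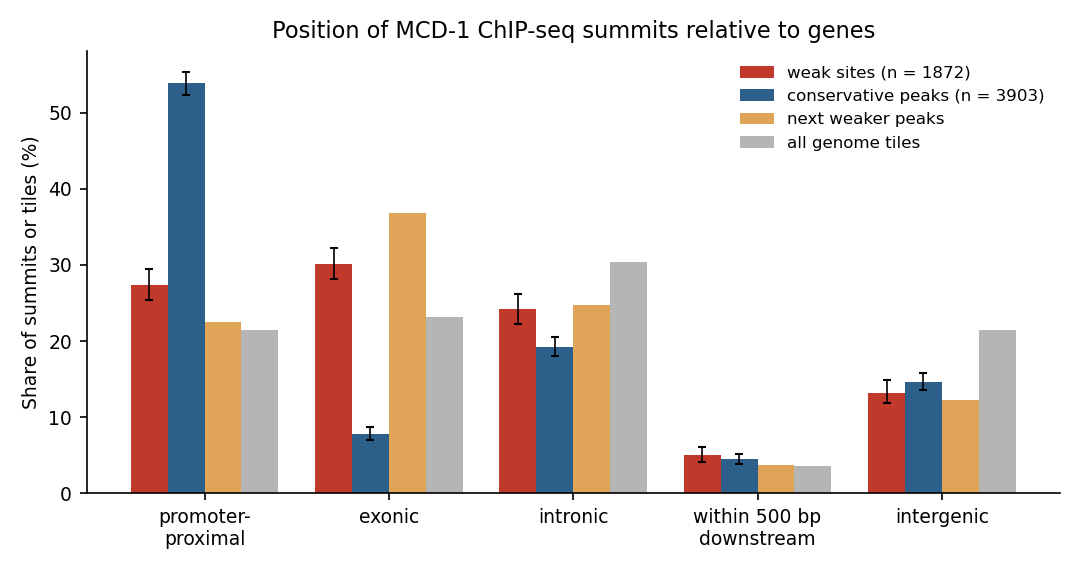
Share of summits in each position class for weak sites, conservative peaks, next weaker peaks and all tiles of the nuclear genome of the same length as the summit windows, with Wilson 95% intervals for the first 2 sets. Weak sites had 27.4% promoter-proximal and 30.1% exonic summits, against 53.9% and 7.84% in the conservative peaks.

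Along the ranked list the exonic share rose and the promoter-proximal share fell with rising IDR, among the stronger peaks and through the weak sites. The bands differ in width, so the sizes of the steps between them cannot be compared. Exonic summits made up 1.39% of peaks with an IDR up to 1e-05, 4.40% of those from 1e-05 to 0.001, 14.8% of those from 0.001 to 0.01, then 27.9% and 32.2% in the first and the last of 3 bands of weak sites with rising IDR, and 36.6% from 0.05 to 0.1. Promoter-proximal summits made up 76.6%, 55.1% and 39.4% of the same stronger peaks, 28.5% and 26.6% of those bands of weak sites, and 22.7% from 0.05 to 0.1. GAGCG stood in 20.1%, 16.2% and 13.6% of windows in the 3 bands, and in 15.9% from 0.05 to 0.1, above the last of them. The signal medians of these 3 bands of weak sites were 70.3, 62.6 and 58.0.

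**Figure D3:**
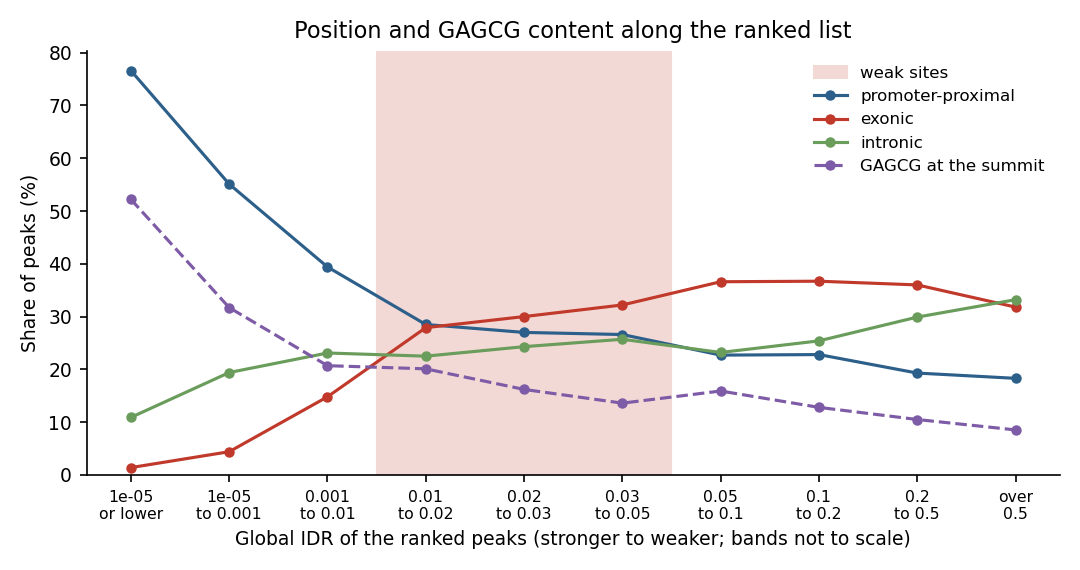
Share of peaks that were promoter-proximal, exonic or intronic, or that held GAGCG within 50 bp of the summit, in 10 bands of global IDR from stronger to weaker peaks, with the weak sites shaded. The exonic share stood at 14.8% just before the shaded bands and at 32.2% in the last of them, and the promoter-proximal share at 39.4% and 26.6%.

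Weak promoter-proximal summits were spread more evenly over the promoter window than conservative ones. Their median position was -258 bp from the nearest 5′ end, with quartiles at -601 and -25 bp, against -186 bp, with quartiles at -373 and -81 bp, for conservative summits. The bin from 200 to 100 bp upstream held 10.9% of weak and 24.1% of conservative promoter summits. Downstream of the 5′ end, the first 100 bp held 12.1% of weak and 6.71% of conservative promoter summits. Summits shared by promoter windows of opposite strands, as at divergent promoters, were seen at 66 weak sites (12.9%) and 637 conservative peaks (30.3%). These differences were not tested.

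**Figure D4:**
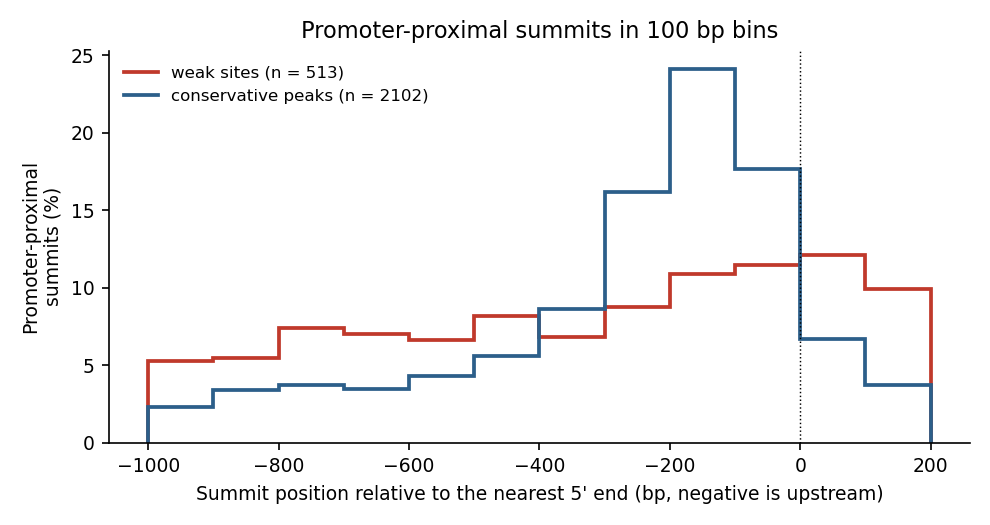
Promoter-proximal summits in 100 bp bins by their position relative to the nearest 5′ end, as a share of the 513 weak or the 2102 conservative ones. The conservative line peaks at 24.1% from 200 to 100 bp upstream, where the weak line stands at 10.9%.

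Chromosomal position differed less. The X chromosome held 227 weak sites (12.1%) and 431 conservative peaks (11.0%), which did not pass the test (adjusted Fisher p = 0.271), and 17.7% of genome tiles. Per megabase there were 12.8 weak sites on X and from 14.3 on V to 25.6 on III among the autosomes, and conservative peaks also ran between X, at 24.3, and III, at 55.8. Of the autosomal weak sites 413 of 1645 (25.1%) lay in the middle of 3 equal lengths of the chromosome, against 1103 of 3472 conservative peaks (31.8%), with an odds ratio of 0.720 (adjusted Fisher p = 2.38e-06). On replicate 1's own lists this difference was smaller and did not pass the test (30.7% of weak and 33.5% of thresholded peaks, adjusted Fisher p = 0.177).

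The strongest weak sites at promoters stood at genes of many functions. The highest with a gene symbol was that of agt-1, which encodes a DNA alkyltransferase of DNA repair (chrIV:13369327-13369424, summit 28 bp inside the gene, signal 138). Its replicates stood at 1.15 times the median conservative peak in replicate 1 and 0.451 in replicate 2, a mean of 0.801 ± 0.495 (SD, n = 2). The site shared by xpo-2, an export factor for importin alpha, and nol-14, a nucleolar protein gene (chrI:323408-323777) gave 1.18 and 0.425 in replicates 1 and 2. The chitin synthase gene chs-1, needed for the eggshell, gave 1.14 and 0.437 at a summit 76 bp upstream. The site of grld-1, an RNA-binding protein gene, and cox-6C, a cytochrome c oxidase subunit (chrIV:126121-126490), gave 1.16 and 0.457. In each of these, replicate 1 was near its median conservative peak and replicate 2 was well below its own. Since the lower multiple was at most 0.468 at every weak site held by both replicates, this is no trait of these genes.

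The septin gene unc-59, with W09C5.1, gave 1.07 and 0.454 in replicates 1 and 2, and the divergent promoter of the proteasome lid gene rpn-5 and the cohesin gene scc-1 gave 1.07 and 0.442. The linker histone gene his-24 (chrX:14489880-14490249) gave 1.04 and 0.415, with a conservative peak 463 bp away. The maternal factor gene pie-1, which keeps transcription off in germline blastomeres, gave 0.955 and 0.442. The chromatin remodeller gene chd-3 gave 1.03 and 0.425, with GAGCG in its window. Replicate 2 was the higher at 4 of the 20 strongest symbol-bearing promoter sites. These were maco-1 (macoilin), with 0.379 in replicate 1 and 0.914 in replicate 2, jun-1 (an AP-1 factor), with 0.411 and 0.988, adh-5 (an alcohol dehydrogenase), with 0.350 and 0.894, and phb-1 (prohibitin), with 0.407 and 1.07. The remaining sites were those of prdx-2, spe-36, bath-40, suf-1, rab-7, nse-4 with mbf-1, and apd-3, with signals between 94.8 and 107 and replicate 1 the higher at each. Over the 20, the lower replicate lay between 0.350 and 0.457 and the higher between 0.702 and 1.18. Replicate 1's thresholded list held 17 of these sites and replicate 2's list 4, and GAGCG stood in 2 of the 20 windows.

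Weak sites away from promoters included the strongest of all, an intergenic site at chrI:10947629-10947998 with a signal of 220. It stood at 0.462 times the median conservative peak in replicate 1 and 2.89 in replicate 2. Neither this site nor the one near fbxa-28, below, stood in any thresholded list of the authors, and the reason was not tested. An intronic site of K09C6.8 (chrV:842670-843039, signal 157), the repeat shown above, gave 0.393 and 1.83. Intronic sites of nrde-1, a gene of nuclear RNA interference, gave 1.18 in replicate 1 and 0.430 in replicate 2, and of W02H5.16 0.407 and 1.33. Downstream of puf-6, a gene of the Pumilio family, a site (chrII:13039148-13039517, signal 153) gave 1.33 and 0.449. The other sites just past a gene's end were those near fbxa-28, a gene of an F-box family (chrIII:1299779-1300148, signal 151), with 1.62 in replicate 1 and 0.467 in replicate 2, and near srg-64, a chemoreceptor gene (chrX:15736452-15736821, signal 110), with 0.914 and 0.410. The intergenic site nearest copd-1, shown above, had a signal of 134 and gave 1.17 and 0.461. That nearest nhr-41, a nuclear hormone receptor gene (chrIV:1377645-1378014, signal 122), gave 0.402 and 1.18. At each of these one replicate reached or neared its median conservative peak while the other stayed below 0.5. The latter held for every weak site found in both replicates, where the lower multiple was at most 0.468. The strongest exonic sites were those of col-93 (signal 105, multiples 0.407 and 0.947), gei-17, a SUMO ligase gene (multiples 0.736 and 0.436), and rib-2, a heparan sulfate synthesis gene (102, multiples 0.863 and 0.447). The tagged gene mcd-1 itself held no weak site, and the nearest weak summit lay 8635 bp from its 5′ end.

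Genes were then asked for a weak summit in their promoter window. Of 19973 protein-coding genes, 549 had one, while 2636 (13.2%) had a conservative summit. Both were present at 71 genes, which is 2.69% of the genes with a conservative summit. Among the 17337 genes without a conservative summit 478 had a weak one, 2.76%. By the rule, a weak site at a gene with a conservative summit does not overlap that peak. With each summit given to its nearest gene alone, these counts were 50 and 426. A promoter window of 500 bp upstream to 100 bp downstream left 1 gene with both, and a window of 2000 bp upstream gave 275. Genes with an assigned symbol made up 61.5% of the genes with a weak summit alone, 69.0% of those with a conservative summit and 54.6% of all.

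Lists of core cell functions had between 0 and 4 genes each at a weak promoter summit. In most of these lists the share lay above the 2.76% background, but in a short list 1 gene is enough for that. An example is 1 of 27 splicing proteins (3.70%). With so few genes a list, these shares are descriptions and cannot be read against the background. The respiratory chain and ATP synthase list had 4 of its 30 genes without a conservative summit at a weak site (13.3%). These were cox-6C, the complex I subunit genes nuo-3 (0.477 ± 0.0162, a multiple of the median conservative peak with its SD over both replicates) and ndub-11 (0.447 ± 0.0181), and cox-15 (0.474 ± 0.163), a factor of cytochrome c oxidase assembly. The proteasome list had 3 of 15, rpn-5, rpn-10 (0.442 ± 0.106) and rpn-1 (0.374 ± 0.0573). Histones had 3 of 53 (5.66%), his-24 and the pair his-3 and his-4, which share a site at 0.521 ± 0.171. The mitosis list had 2 of 22 (9.09%), the centrosome gene spd-2 and the condensin gene dpy-26, and DNA replication had 1 of 9 (11.1%), the helicase gene mcm-6 (0.509 ± 0.158). Aminoacyl-tRNA synthetases had 2 of 19 (10.5%), aars-2 and fars-1, and mitochondrial ribosomal proteins 2 of 37 (5.41%), mrps-23 and mrpl-42. Translation factors had 1 of 15 (6.67%), eif-2alpha, the vacuolar ATPase 1 of 8 (12.5%), vha-10, splicing proteins 1 of 27 (3.70%), lsm-5, and chaperones 2 of 32 (6.25%), dnj-23 and hsp-70. Cytosolic ribosomal proteins had 0 of 13, nucleoporins 0 of 11 and tubulins and motors 0 of 31. Several of these counts moved with the lists used. On replicate 1's own lists 8 cytosolic ribosomal protein genes, 0 proteasome genes and 1 histone gene had a weak summit without a thresholded one, and on replicate 2's own lists 3, 2 and 7. Histone genes occur in near-identical copies, and how the authors placed reads that match several copies is not stated in the labels or file headers.

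The lists closest to the known genetics of mcd-1 were too short for their counts to be read against 2.76%. Apoptosis and engulfment genes had 0 of 29, while the same rule gave 1 on replicate 1's own lists and 4 on replicate 2's. Of the list with DRM and synMuv B genes 1 of 12 (8.33%) was at a weak site, lin-56, known as a class A synMuv gene, with a summit at -987 bp from its 5′ end and multiples of 0.331 in replicate 1 and 0.417 in replicate 2. The class B gene lin-15B carried a weak site (0.407 ± 0.0242) 368 bp from a conservative peak. Germ granule and small RNA genes had 2 of 45 (4.44%), the cytoplasmic poly(A) polymerase gene gld-2 (0.479 ± 0.0260) and the Argonaute gene alg-1 (0.415 ± 0.0704). Among families of specialised genes, nuclear hormone receptors had 8 of 253 (3.16%), led by nhr-114 (0.398 and 0.797 in replicates 1 and 2) and nhr-8 (0.577 and 0.396), and 4 on either replicate's own lists. Homeobox factors had 2 of 78, ceh-34 and unc-42, F-box families 6 of 313 and chemoreceptors 4 of 1349 (0.297%). Cytochrome P450, UGT and GST genes had 3 of 178, collagens 2 of 161, channels 1 of 146, C-type lectins 0 of 231 and neuropeptides 0 of 138.

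**Figure D5:**
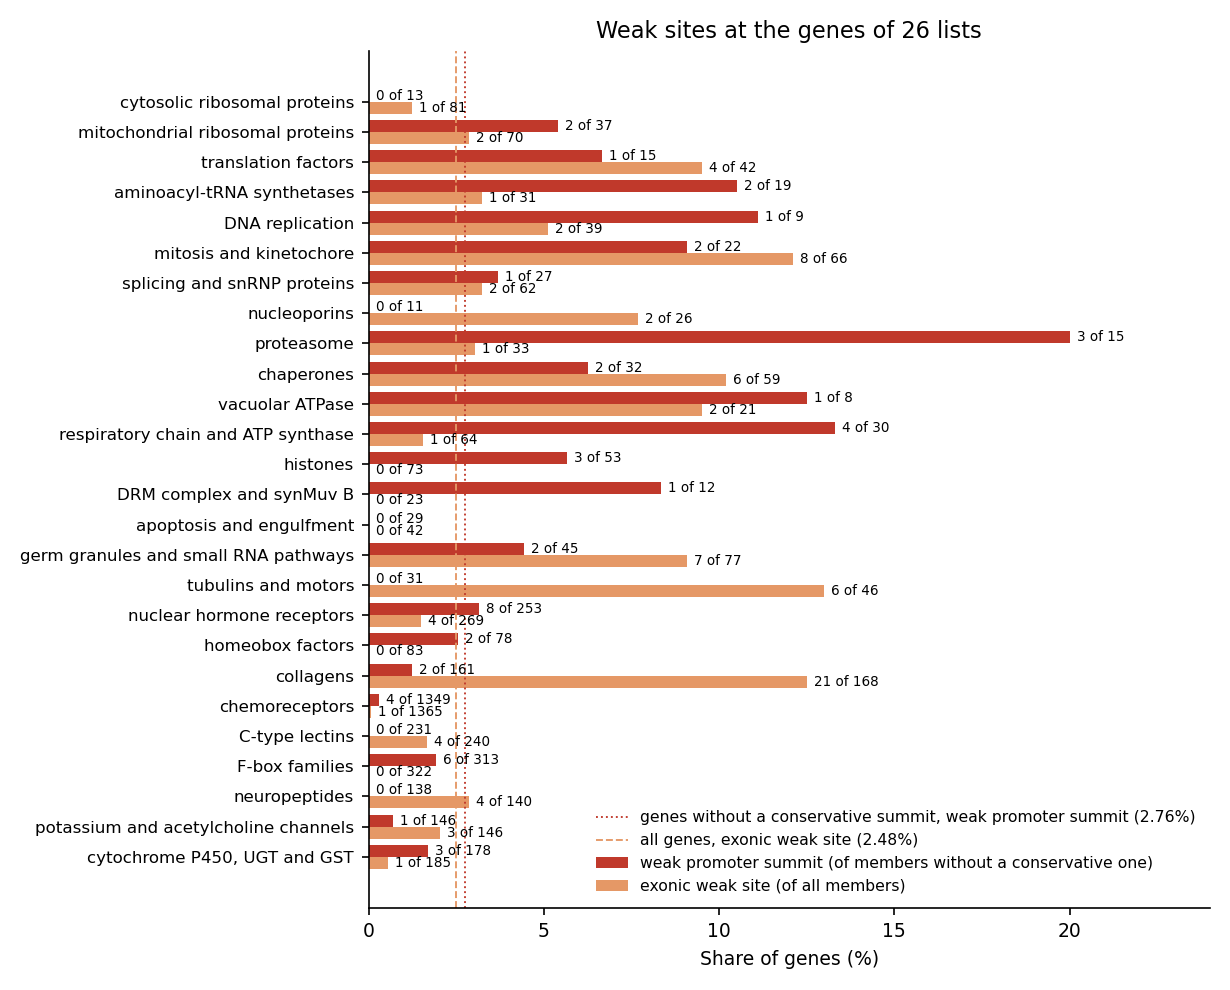
For each of 26 gene lists, the share of members without a conservative promoter summit that had a weak one, and the share of all members with an exonic weak site, with the number of genes beside each bar. The dotted line marks 2.76%, the share over the 17337 genes without a conservative summit, and the dashed line 2.48%, the share of all protein-coding genes with an exonic weak site.

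Exonic weak sites lay in 495 genes, 2.48% of all protein-coding genes, and their windows were rich in G and C. A gene was counted where its span held the summit, also if the exon was that of another gene. The median GC content was 51.5% in exonic weak windows and also in exonic conservative ones, against 39.6% in exonic tiles of the genome. The exons were long, with a median of 585 bp for weak sites and 638 bp for conservative peaks, against 342 bp for exonic tiles. The host genes had a median length of 4135 bp, against 2027 bp for all protein-coding genes, and longer genes offer more exon for a summit to fall in. A conservative promoter summit was present at 180 of the 495 hosts (36.4%), against 13.2% of all genes. Of the genes with exonic conservative peaks, 37.8% had one. Several hosts held more than 1 exonic weak site, 69 of them at least 2 and 12 at least 3, with 4 each in F58D5.5, the kinase gene mnk-1 and the spectraplakin gene vab-10. Overlapping weak sites were counted separately here, so some of these hosts may hold fewer separate regions than sites.

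Collagens, the structural proteins of the cuticle, differed between promoters and exons. While 2 of 161 had a weak promoter summit, 21 of all 168 (12.5%) held an exonic weak site, against 2.48% of all genes. The next weaker peaks gave 20 other collagens (11.9%) and the conservative peaks 11 (6.55%). The 21 genes and their 21 sites do not match singly, since col-103 held 2 sites and col-159 and col-160 shared a site. The 21 sites had a median GC content of 62.4% (range 50.5% to 68.3%), against 54.5% over 1789 windows of collagen exons. Their multiples had a median of 0.396 in replicate 1 (0.325 to 0.720) and 0.488 in replicate 2 (0.361 to 1.29), and replicate 2 was the higher at 17 of 21. The lean to replicate 2 was shared by exonic weak sites at large, of which 31.6% had the higher multiple in replicate 1. The highest were col-108, with 0.411 in replicate 1 and 1.29 in replicate 2, col-93, and col-119, with 0.405 and 0.846. The count rested on the lists used: the same rule on replicate 2's own lists gave 11 collagens, and on replicate 1's own lists 2. Of the 21 genes, 2 had a conservative promoter summit, col-71 and col-8. Collagen genes share related coding sequence, and the part of shared reads and of GC content in these sites was not tested.

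In other lists the hosts of exonic weak sites differed in whether their promoters held a conservative summit, which 36.4% of all hosts did. The lists themselves also differed in the share of all their members with such a summit. With so few genes in each list, the shares below are descriptions. They cannot be read against the 2.48% of all protein-coding genes with an exonic weak site. The mitosis list had an exonic weak site in 8 of 66 members (12.1%). Of these 8, 7 had a conservative promoter summit, among them bub-3, hcp-4 and zwl-1, against 66.7% of that list. Chaperones had 6 of 59 (10.2%), all 6 with one, including cct-1, hsp-1 and hsp-60, against 45.8% of that list. Germ granule and small RNA genes had 7 of 77 (9.09%), 5 with one, including mex-5, glh-4 and hrde-1, against 41.6% of that list. Translation factors had 4 of 42 (9.52%), all 4 with one, against 64.3% of that list. Tubulins and motors had 6 of 46 (13.0%), 2 with one, against 32.6% of that list. Of the 6, the dynein gene dhc-4 was counted for the same site as col-93. Of 4 hosts each among nuclear hormone receptors and C-type lectins, 1 had a conservative promoter summit in either list, against 5.95% and 3.75% of all members. None of 4 neuropeptide and 3 channel hosts had one. Among all members, 1.43% of neuropeptides and 0 of 146 channels did, so for the channels no other count was possible. An exonic weak site lay in 1 of 1365 chemoreceptors (0.0733%), and in none of 83 homeobox factors, 73 histones and 322 F-box family genes.

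Genes of tRNAs, snoRNAs and snRNAs stood near a smaller share of the weak sites than of the conservative peaks. A tRNA gene lay within 200 bp of 28 of the 1872 weak summits and 227 of the 3903 conservative summits (5.82%). For snoRNA genes these were 11 (0.588%) and 91 (2.33%), for snRNA genes 3 (0.160%) and 49 (1.26%), and for genes annotated only as noncoding RNA 142 (7.59%) and 556 (14.2%). MicroRNA and piRNA genes went the other way by small margins, with 6 (0.321%) and 12 (0.307%) for microRNA genes and 16 (0.855%) and 27 (0.692%) for piRNA genes, and no rRNA gene lay near a summit of either set. The next weaker peaks gave 0.710% for tRNA genes. The strongest weak sites near a tRNA gene, at chrI:12142750-12143119 and chrIV:16399929-16400298, had signals of 107 and 103 and multiples of 0.900 and 0.860 in replicate 1 and of 0.420 and 0.383 in replicate 2. The tRNA and snRNA genes occur in near-identical copies, so a site may stand for another copy, and these counts were not tested.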

How the data were processed

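The data were ChIP-seq peak lists of 2 biological replicates on the ce11 build, per the labels. In all, 8 peak lists were deposited, with a signal value, a score of up to 1000, a −log10 q value that was not used and, in the ranked lists, a −log10 IDR capped at 5. The deposited lists have no header: column 12 was read as the −log10 global IDR because the deposited score matched a fixed multiple of it, limited to 1000, within 1 in all 55700 ranked peaks. The score and the summit offset were used as deposited. Which aligner and peak caller made them is not given in the sources used here. Among these, the ranked lists of the series hold 4 signal columns without a sample name, not used. Depth is unknown, so errors are SDs over 2 replicates, and shares of regions have Wilson 95% intervals that cover counting error only.

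Summits were set against Ensembl release 115 genes and the RefSeq WBcel235 sequence. Classes were taken in the order promoter-proximal, exonic, intronic, within 500 bp downstream, intergenic. A summit in the windows of several genes was counted for each. The tests of position were Fisher's exact tests, two-sided (scipy 1.17.1, Python 3.11.15, numpy 2.4.6, pandas 2.3.3; plots with matplotlib 3.10.9), adjusted by Benjamini-Hochberg over 7 measures. The test was checked on simulated sets of known shares. Their regions were drawn independently, so the check does not cover overlapping or neighbouring regions such as those in these data. Gene lists and words have counts only. Named were genes at the 20 strongest symbol-bearing weak promoter sites, up to 6 members of a list, every member of the 2 lists closest to mcd-1, the 3 strongest sites of other classes, the 3 sites on either side of each IDR limit, and mcd-1. The members, lists and words were chosen with earlier results of these data known. The collagen exons and gene-body hosts were singled out after their values were seen.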

Additional observations from a re-analysis of the deposited data

Results flagged for a closer look

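The mitochondrial genome, which the comparisons left out, carried 21 peaks in replicate 2's thresholded list and 0 in replicate 1's, and 23 and 0 in the ranked lists. They stand outside the nuclear chromosomes and so enter no count of weak sites.

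The ranked list held 41 nuclear peaks with an IDR of 0.01 or lower that do not appear in the conservative list. Their signal lay between 66.6 and 1839, with a median of 206, and 34 of them were intergenic. These peaks are neither weak sites nor conservative peaks; 1 weak site overlapped one of them and 3 lay within 1000 bp.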

How the results depend on the processing

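The promoter-proximal and exonic differences kept their direction and passed the test under all 10 alternatives. Here, a replicate left out means the same rule on the other replicate's own ranked and thresholded lists. These hold other regions and another threshold, with 1244 weak sites without replicate 1 and 1119 without replicate 2. They are not the same sites seen in fewer data. Intronic excess was 3.27 points at an IDR up to 0.02, no longer past the threshold. The middle-third deficit ran from -3.95 to -2.78 points with either replicate left out, not past the threshold without replicate 2. The intergenic difference turned to 1.08 points at an IDR up to 0.02, 0.236 with a 2000 bp window, 0.769 on the pooled lists and 1.84 to 3.20 with a replicate left out, past the threshold without replicate 1, and was -3.09 and past the threshold with a 500 bp window. The difference downstream of genes turned to -0.559 with that window and -0.490 on the pooled lists, and that of X to -0.149 without replicate 2 (2.10 without replicate 1). The cause was not tested.

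Genes with a weak summit alone numbered 183 at an IDR up to 0.02, by construction with fewer sites, and 318 with the 500 bp window, and 357 to 393 with a replicate left out. Genes with both numbered 28 and 1 under those settings, 47 without sites in any thresholded list, 0 beyond 1000 bp of a conservative peak, 275 with the 2000 bp window, and 37 to 44 with a replicate left out. The counts of 1 and 0 are limited by the rule against overlap and by the distance set. Collagens with an exonic site numbered 8 at an IDR up to 0.02, 13 without sites in any thresholded list, and 2 to 11 with a replicate left out. GAGCG stood in 25.9% of weak and 41.8% of conservative windows of 100 bp to either side, and in 17.6% to 18.7% of weak windows with a replicate left out. Sites near a tRNA gene numbered 10 and 16 at an IDR up to 0.02 and outside thresholded lists. Merging overlapping weak sites, or keeping a signal of at least 20, both chosen after seeing the data, changed no call. No paired analysis was possible because the samples form 1 group.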
